A study of Saccharomyces cerevisiae S288C with 6 samples.

Results

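The 43 genes described here encode proteins of the mitochondrial ribosome of Saccharomyces cerevisiae and were chosen by name, as every gene on the array whose symbol is MRPL or MRPS followed by a number. They comprise 34 MRPL genes, for the large subunit, and 9 MRPS genes, for the small subunit, among 5449 yeast genes named on the array. Each of the 43 was read on 1 probe set specific to that gene, and all 43 passed the filter on low signal that left 5356 genes for testing. The genes were compared between cultures of the S288C reference strain treated with plakortide F acid (PFA), an antifungal polyketide with an endoperoxide ring, and cultures given solvent. All cultures grew in MOPS-buffered synthetic dextrose. At OD 0.2 they were given either PFA at its IC50 of 0.62 ug/ml or DMSO at 0.25%, and they grew on until OD 0.5. Each group held 3 biological replicates on 1 Affymetrix array each. The labels give neither the time each culture needed to reach the second density nor the DMSO content of the PFA cultures, and effects of the compound and of growth rate cannot be told apart.

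Mitochondria keep a small genome that codes mainly for hydrophobic core subunits of the respiratory chain and ATP synthase, and these are made on a ribosome of the organelle's own. Nearly all proteins of that ribosome are encoded in the nucleus, made in the cytosol and imported, so their messenger RNAs can be read beside those of the cytosolic ribosome. Some of the proteins have counterparts in bacterial ribosomes, and others are found only in mitochondria. Budding yeast growing on glucose ferments and needs little respiration, and transcripts for the mitochondrial ribosome are known to move with carbon source and growth rate.

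The names fit the genes in the reference table, where all 43 carry a unified ribosomal protein name, in which a leading u or b marks a protein with a bacterial counterpart and m a protein found only in mitochondria. By these names 29 members have a bacterial counterpart and 14 do not. The members lay on 12 of the 16 nuclear chromosomes, none was on mitochondrial DNA, and no pair of members was adjacent. Mean signals of the 43 probe sets were 524 to 3607, with a median of 1017, far above the background level of 20.01, the 95th percentile of probe sets made for Schizosaccharomyces pombe. Of those probe sets, 31 carry mrpl or mrps symbols, and 0 of the 31 exceeded that level, with a median signal of 3.75 and a highest of 19.7. Signals are on the authors' linear scale, where the trimmed mean of each array lay between 1000.5 and 1000.6, and they describe levels relative to the average of the array. Correlations between arrays were 0.991 to 0.994 within groups and 0.923 to 0.929 between groups. Because brightness differs between probes, signals of different genes are not compared as transcript levels.

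Most of the 43 genes were lower in PFA. At a limma adjusted p under 0.05, 30 of the 43 (69.8%) were called lower and 2 (4.65%) higher, and 11 had no call. Over all genes tested 62.0% were called by the same rule, 31.8% lower and 30.3% higher. The median log2 change was -0.42 for the 43 genes and -0.02 for all 5356. The changes were small, with log2 values from -0.74 to 0.33 and no fold above 1.67. Falls of at least 1.5-fold were found in 8 of the 43, or 18.6%, against 10.4% of all genes. In 32 members all 3 PFA signals lay below all 3 DMSO signals, in 2 they lay above, and in 9 the groups overlapped. Over all genes the signals were apart in 66.6%, with PFA below in 34.2% and above in 32.4%. The plot of log2 changes by gene gives every member with its interval.

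**Figure D1:**
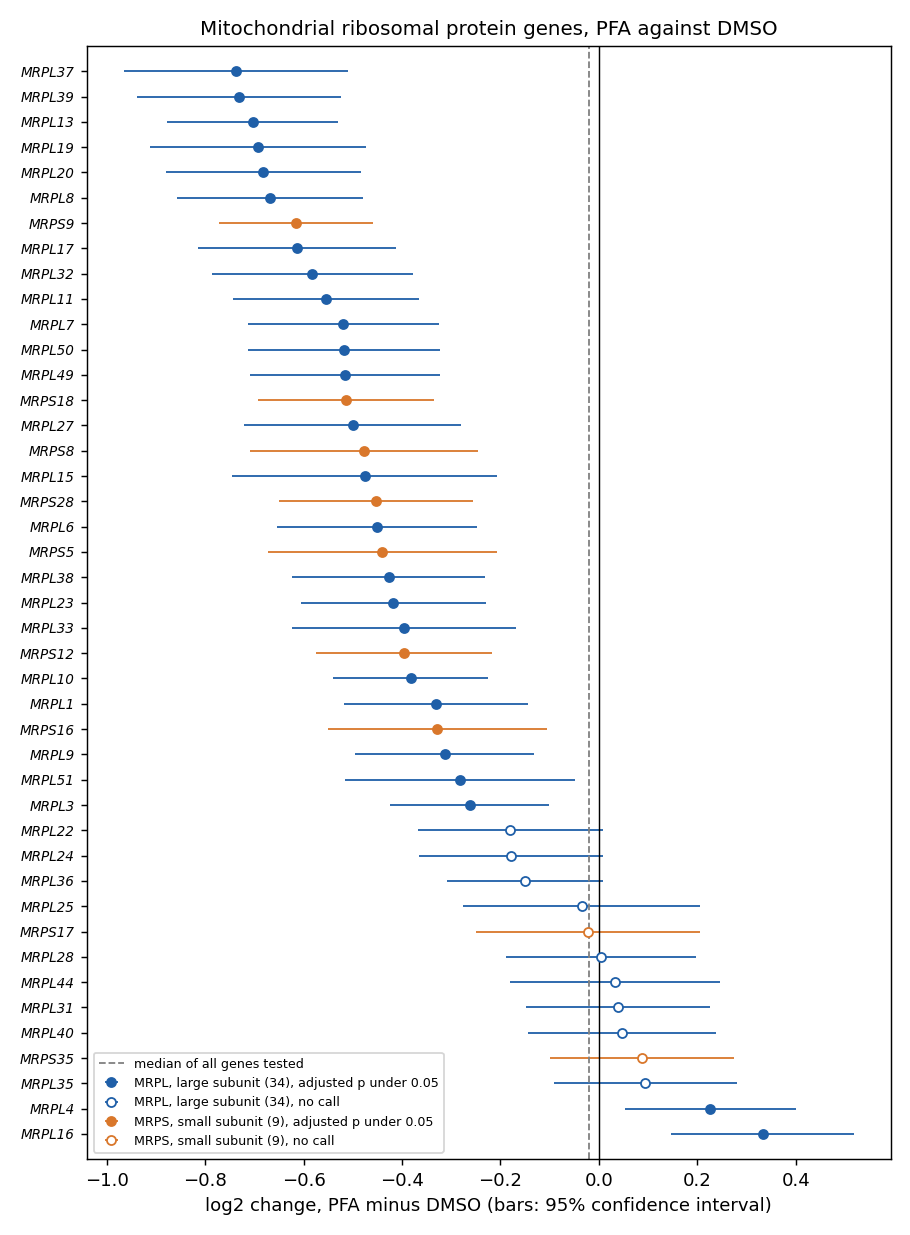
The x axis gives the log2 change of each of the 43 genes, PFA minus DMSO, with 95% confidence intervals, and each row is a gene. Blue marks MRPL and orange MRPS genes, filled points have an adjusted p under 0.05, and the dashed line is the median of all genes tested at -0.02. Changes run from -0.74 for MRPL37 at the top to 0.33 for MRPL16 at the bottom.

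The 6 largest falls were all in large-subunit genes. MRPL37 (YBR268W, unified name mL54), a protein found only in mitochondria, had signals of 823, 878 and 676 in PFA, against 1439, 1259 and 1252 in DMSO. All PFA signals lay well under the lowest DMSO signal, and the gene fell 1.67-fold, a log2 change of -0.74 ± 0.10 (SE, adjusted p = 5.93e-05). MRPL39 (YML009C, bL33m), the shortest of the 43 with a coding length of 213 bases, gave 1421, 1360 and 1206 in PFA and 2486, 2104 and 2042 in DMSO. Again the groups were apart, and the log2 change was -0.73 ± 0.10 (SE, adjusted p = 2.99e-05).

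MRPL13 (YKR006C, mL50), another protein found only in mitochondria, had signals of 825, 835 and 883 in PFA and 1315, 1352 and 1475 in DMSO. Its replicates lay close together, and it fell 1.63-fold (log2 -0.70 ± 0.08, SE, adjusted p = 9.05e-06). MRPL20 (YKR085C, mL58) gave 542, 557 and 460 in PFA and 845, 821 and 824 in DMSO, a fall of 1.6-fold (log2 -0.68). MRPL8 (YJL063C, bL17m), whose bacterial counterpart sits near the exit of the peptide tunnel, gave 886, 811 and 763 in PFA and 1395, 1223 and 1290 in DMSO, a fall of 1.59-fold (log2 -0.67). In each of these genes the highest PFA signal was below the lowest DMSO signal.

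**Figure D2:**
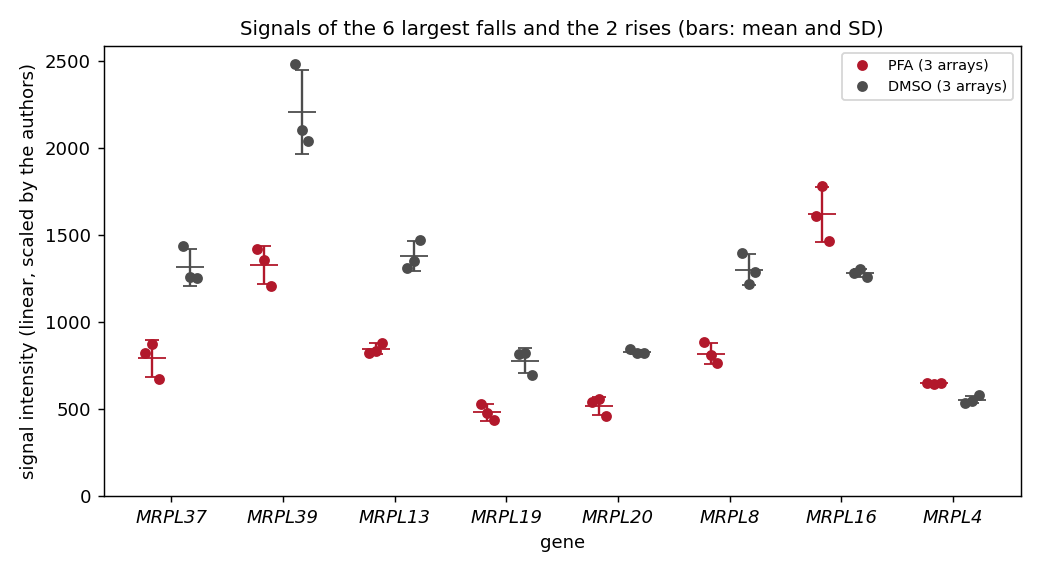
The y axis gives the authors' linear signal on each array for the 6 largest falls and the 2 rises, with PFA arrays left in red and DMSO arrays right in grey. Horizontal bars are means and vertical bars SDs of 3 arrays. PFA signals lie below DMSO signals for the first 6 genes and above them for MRPL16 and MRPL4.

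Proteins at the base of the ribosomal stalk, the flexible arm that recruits translation factors, were among those that fell. MRPL19 (YNL185C, uL11m), which binds ribosomal RNA at the stalk base, had signals of 530, 479 and 436 in PFA and 817, 822 and 696 in DMSO, and fell 1.62-fold (log2 -0.69, adjusted p = 7.31e-05). MRPL11 (YDL202W, uL10m), which anchors the stalk, gave 777, 871 and 740 in PFA and 1113, 1231 and 1159 in DMSO, a log2 change of -0.55. MNP1 (bL12m), the stalk protein itself, is not among the 43 by name, and had signals of 1138, 941 and 890 in PFA and 1427, 1514 and 1481 in DMSO (log2 -0.58, adjusted p = 0.000197). TUF1, the elongation factor that delivers aminoacyl-tRNA to this ribosome, fell as well, to 1907, 2028 and 2193 in PFA against 3400, 3372 and 3437 in DMSO. Its log2 change was -0.74 ± 0.07 (SE, adjusted p = 3.10e-06). TUF1 was the sole gene called lower among the 12 translation factors listed (8.33%, beside 31.8% of all genes). Among the others, MEF1 (log2 0.16), MEF2 (0.18) and GUF1 (-0.06) had no call. MRPL19, MRPL11, MNP1 and TUF1 were set together by site with their values known, and the set was not tested.

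Proteins that line the exit of the peptide tunnel differed among themselves. MRPL22 (uL22m), which forms part of the tunnel wall in bacteria, had signals of 791, 748 and 690 in PFA and 789, 845 and 892 in DMSO, and the groups overlapped (log2 -0.18, adjusted p = 0.0879). MRPL40 (YPL173W, uL24m) gave 567, 546 and 535 in PFA and 517, 503 and 578 in DMSO, also with overlap (log2 0.05, adjusted p = 0.661). MRP20 (uL23m), which the name rule does not take, had a log2 change of -0.07 (adjusted p = 0.576), whereas MRPL4 (uL29m), described next, rose. Other genes for proteins near the exit fell, among them MRPL8 and MRPL13, given above, and MRPL32 (bL32m), MRPL3 (mL44) and MRPL15 (mL57), given below with the rest of the subunit. The site was chosen with the values known and not from a fixed list, and a difference between sites was not tested.

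Only 2 members rose. MRPL16 (YBL038W, uL16m), whose bacterial counterpart lies beside the peptidyl transferase centre, had signals of 1610, 1785 and 1469 in PFA and 1281, 1306 and 1263 in DMSO. Every PFA signal was above every DMSO signal, and the rise was 1.26-fold (log2 0.33 ± 0.09, SE, adjusted p = 0.00457). MRPL4 (YLR439W, uL29m) gave 650, 648 and 651 in PFA and 538, 548 and 582 in DMSO, 1.17-fold higher (log2 0.23 ± 0.08, SE, adjusted p = 0.0263). The MRPL4 call was lost in 7 alternatives, among them both rescalings of the arrays and leaving out any one of 4 arrays, where its adjusted p was 0.0594 to 0.0892. MRPL16 stayed past the threshold in all 18 alternatives, with adjusted p at most 0.0269.

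Among the small-subunit genes, 7 of 9 fell (77.8%, beside 31.8% of all genes), none rose and 2 did not pass the test. MRPS9 (YBR146W, uS9m), whose bacterial counterpart reaches the peptidyl-tRNA site, fell most, with signals of 2025, 2023 and 1931 in PFA and 2943, 3236 and 2993 in DMSO (log2 -0.62 ± 0.07, SE, adjusted p = 1.17e-05). MRPS12 (YNR036C, uS12m), part of the decoding centre, had 3223, 3374 and 2861 in PFA and 4432, 4190 and 3812 in DMSO (log2 -0.40, adjusted p = 0.00115). Both genes had groups that did not overlap.

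The other small-subunit falls had log2 changes of -0.51 for MRPS18 (uS11m), -0.48 for MRPS8 (uS8m), -0.45 for MRPS28 (uS15m), -0.44 for MRPS5 (uS5m) and -0.33 for MRPS16 (bS16m). MRPS17 (YMR188C, uS17m), the gene with the dimmest probe set, had 534, 540 and 488 in PFA and 458, 546 and 589 in DMSO. Its groups overlapped, with a log2 change of -0.02 (95% confidence interval -0.25 to 0.20). MRPS35 (mS45), the single small-subunit member found only in mitochondria, had a log2 change of 0.09 (interval -0.10 to 0.27) and overlapping groups, with signals of 717, 657 and 726 in PFA and 660, 616 and 699 in DMSO.

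The rest of the large-subunit genes that fell had log2 changes from -0.61 to -0.26. MRPL17 (mL46) had a log2 change of -0.61, and MRPL32 (bL32m), a protein matured by the mitochondrial AAA protease before it joins the ribosome, one of -0.58. MRPL7 (uL5m), in the central protuberance at the top of the subunit, fell by 0.52 on the log2 scale. MRPL50 (bL9m), MRPL49 (bL21m), MRPL27 (mL41), MRPL15 (mL57), MRPL6 (uL6m), MRPL38 (uL14m) and MRPL23 (uL13m) had log2 changes between -0.52 and -0.42. MRPL33 (uL30m), MRPL10 (uL15m), MRPL1 (uL1m), MRPL9 (uL3m), MRPL51 (mL43) and MRPL3 (mL44) had changes between -0.40 and -0.26. MRPL1 belongs to the arm beside the exit site for spent tRNA, and MRPL3 and MRPL15 are related to RNase III. The calls of MRPL51, at an adjusted p of 0.0373, and of MRPS16, at 0.0142, were lost in some alternatives, and those of the other 28 members that fell were not lost in any.

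Besides those already named, 7 large-subunit genes did not pass the test. MRPL24 (bL28m) and MRPL36 (bL31m) had log2 changes of -0.18 and -0.15, with all PFA signals below all DMSO signals. MRPL25, MRPL28, MRPL44, MRPL31 and MRPL35, all found only in mitochondria, had changes of -0.04, 0.00, 0.03, 0.04 and 0.09, and overlapping groups. MRPL28 (mL40) had 1257, 1290 and 1101 in PFA and 1276, 1240 and 1117 in DMSO. MRPL44 (mL53) had 1376, 1421 and 1112 in PFA and 1334, 1242 and 1225 in DMSO. MRPL35 (mL38) gave 808, 873 and 838 in PFA, against 856, 778 and 730 in DMSO, so that the spread within each group was as wide as the distance between them. MRPL31 (YKL138C, mL60) had one of the brightest probe sets, with 2165, 2043 and 1843 in PFA and 2124, 1908 and 1857 in DMSO. For MRPL28 the 95% confidence interval was -0.19 to 0.20, so a change as large as the median of the 43 genes lay outside it.

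Most genes of both subunits fell. Of the 34 MRPL genes 23 fell (67.6%) and 2 rose (5.88%), and of the 9 MRPS genes 7 fell (77.8%) and 0 rose. Over all genes tested 31.8% fell and 30.3% rose. The median log2 change was -0.41 for MRPL and -0.44 for MRPS genes. On the PFA arrays the median signal of the MRPL genes was 855, 876 and 848, against 1278, 1234 and 1192 on the DMSO arrays. For the MRPS genes the medians were 760, 791 and 726 in PFA, against 1084, 967 and 975 in DMSO. Neither subunit had overlapping array medians between the groups. The median change of MRPL minus that of MRPS genes was 0.03. The median log2 signal of MRPL minus that of MRPS genes was 0.17, 0.15 and 0.22 on the PFA arrays and 0.24, 0.35 and 0.29 on the DMSO arrays. By this second measure the MRPL genes were lower relative to the MRPS genes on every PFA array, which is the opposite direction to the first. A difference between the subunits was not tested, because genes are not replicates. By the other division, 22 of the 29 members with a bacterial counterpart fell (75.9%) and 2 rose (6.9%). The 29 had a median log2 change of -0.43. Of the 14 found only in mitochondria 8 fell (57.1%) and 0 rose (median -0.27).

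The 43 genes also shifted together between replicate cultures. PFA replicate 3 held the lowest of the 3 PFA signals for 35 of the 43 genes, whereas it held the lowest for 35.5% of all genes. On that array the members had a median deviation of -0.13 (log2) from their own PFA means, and all genes one of 0.01. The 35 tested mitochondrial ribosome genes with other names, described below, had one of -0.11 there. DMSO replicate 1 held the highest DMSO signal for 29 of the 43, against 37.6% of all genes. Its median deviation was 0.08 for members, 0.05 for those 35 genes and 0.00 for all genes. RNA quality was read from the ACT1 probe sets, whose 3'/5' ratio was 1.19, 1.21 and 1.25 in PFA replicates 1 to 3 and 1.28, 1.20 and 1.20 in DMSO replicates 1 to 3. It was highest in its group on both arrays, in one with low and in the other with high member signals, and its part in the results was not tested. Without both arrays, a comparison added after the data were seen, the median log2 change of the members was -0.30, with 28 lower and 1 higher. Because the genes vary together in this way, the 30 calls are not 30 independent observations.

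**Figure D3:**
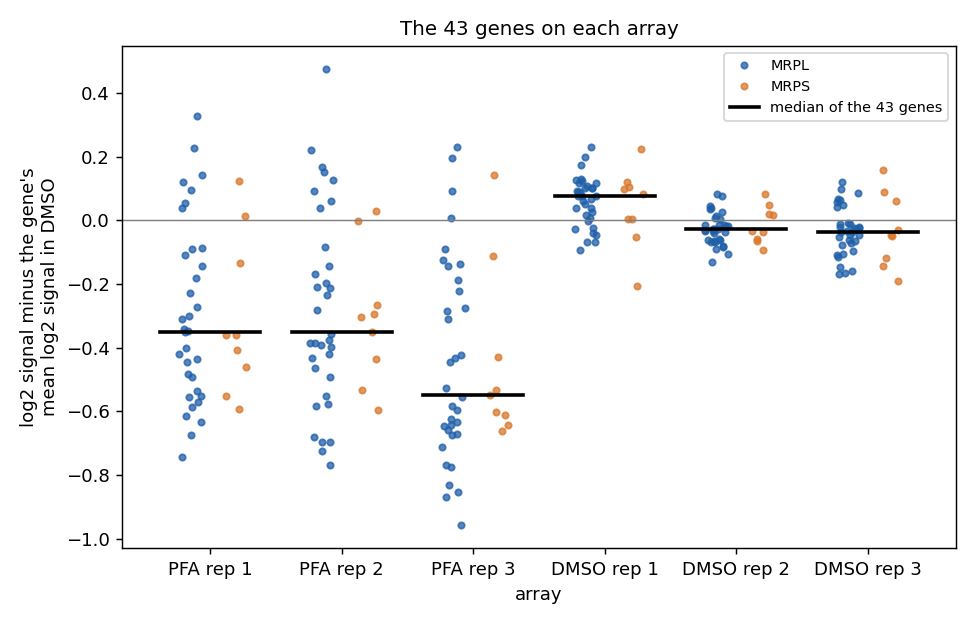
The y axis gives the log2 signal of each gene minus its own mean over the 3 DMSO arrays, for the 3 PFA arrays at left and the 3 DMSO arrays at right. Each point is a gene, blue for MRPL and orange for MRPS, and black bars are medians of the 43 genes. The PFA medians all lie below the DMSO medians, and PFA replicate 3 is the lowest.

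Shorter members had the lower median changes. Across the 43 genes the Spearman correlation of log2 change with mean log2 signal was -0.03, and with coding length 0.23, beside -0.09 and 0.18 across all 5356 genes. These values describe genes read on the same 6 arrays, which are not independent. Member genes were short, with a median coding length of 654 bases against 1245 for all genes tested. Of the 22 members up to the median length 17 fell and 0 rose (median log2 change -0.44), and of the 21 longer ones 13 fell and 2 rose (median -0.33). Among the 7 longest, of 924 bases or more, 3 fell and 1 rose, with a median of -0.18. By the same rule 31.8% of all genes tested were called lower and 30.3% higher.

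Genes listed with the mitochondrial ribosome under other names had a smaller median change. RSM22 among them carries no unified ribosomal protein name in the reference table. This list held 36 genes, of which 35 were tested. Of these, 17 fell (48.6%, beside 31.8% of all genes) and 3 rose (8.57%, beside 30.3%), with a median log2 change of -0.21. In the large subunit 7 of 11 fell (63.6%) and 0 rose. MNP1 fell most, followed by IMG1 (bL19m) at -0.56 and by MHR1 (mL67) and MRP7 (bL27m), both at -0.39. In the small subunit 10 of 24 fell (41.7%) and 3 rose (12.5%). The largest change there was a rise of RSM10 (uS10m), with signals of 3777, 4087 and 3702 in PFA and 2709, 2574 and 2325 in DMSO (log2 0.61 ± 0.08, SE, adjusted p = 2.65e-05). RSM19 (uS19m) rose too, with 2270, 2334 and 1890 in PFA and 1785, 1419 and 1427 in DMSO (log2 0.49). PET123 (mS26) fell by 0.46 and RSM18 (bS18m) by 0.43 on the log2 scale, and MRP10 (mS37), the third gene that rose, had a log2 change of 0.31. The difference between the MRPL and MRPS genes and these 35 was not tested.

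Genes that serve the mitochondrial ribosome without being part of it had medians near 0 or above it, and differences between these lists and the members were not tested. Of 12 assembly and membrane-anchoring genes, 3 fell (25%, beside 31.8% of all genes) and 3 rose (25%, beside 30.3%), with a median log2 change of 0.13. MDM38, which binds the ribosome to the inner membrane, rose (log2 0.50), as did the methyltransferase gene MRM2 (0.42) and the helicase gene MRH4 (0.41), while MAM33 fell (-0.49). OXA1, the insertase that receives nascent chains from the ribosome, had a log2 change of -0.16 (adjusted p = 0.203). Of 12 translation factors TUF1 alone fell (8.33%, beside 31.8% of all genes), and 2 rose (16.7%, beside 30.3%). The 2 were PET112 (0.35) and GTF1 (0.32), which encode subunits of an amidotransferase for charging glutaminyl-tRNA. Of 14 aminoacyl-tRNA synthetase genes 0 fell and 4 rose (28.6%, beside 30.3% of all genes), namely NAM2 (0.44), MSK1 (0.42), DIA4 (0.28) and MSD1 (0.24).

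Activators that each serve the translation of single mitochondrial messages were divided, with 5 of 16 higher (31.2%, beside 30.3% of all genes) and 2 lower (12.5%, beside 31.8%). Their median log2 change was -0.13, and 10 of the 16 were below 0. AEP3 and SOV1 both had log2 changes of 0.60 and ATP22 one of 0.56, followed by PET309 at 0.46 and CBP1 at 0.45. Those that fell were CBP3 (-0.46) and CBS2 (-0.45). The list of mitochondrial transcription and RNA turnover held 8 genes, among them some for the upkeep of mitochondrial DNA. SUV3 (0.42) and DSS1 (0.49), the helicase and nuclease of the RNA degradosome, rose (25%, beside 30.3% of all genes). RIM1 (-0.32), for a protein that binds mitochondrial DNA, alone fell (12.5%, beside 31.8%). RPO41, the mitochondrial RNA polymerase gene, had 924, 916 and 983 in PFA and 956, 895 and 976 in DMSO, with overlapping groups. Of 35 nuclear genes of the respiratory chain and ATP synthase, 8 rose (22.9%, beside 30.3% of all genes) and 6 fell (17.1%, beside 31.8%). Their median log2 change was 0.03. CYC1, for cytochrome c, had the largest change at -0.76, followed by COX6 (-0.53), COX5B (-0.52) and COX5A (-0.52). The largest rises of this list were in ATP3 (0.48) and COX7 (0.46). Genes of the cytosolic ribosome named RPL or RPS fell in 118 of 122 cases (96.7%, beside 31.8% of all genes) and rose in 0. Their median log2 change was -0.30, beside -0.42 for the mitochondrial members. Their probe sets were brighter, with a median mean signal of 13905 against 1017 for the members. The difference in median change was not tested, nor was the part of probe brightness in it.

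**Figure D4:**
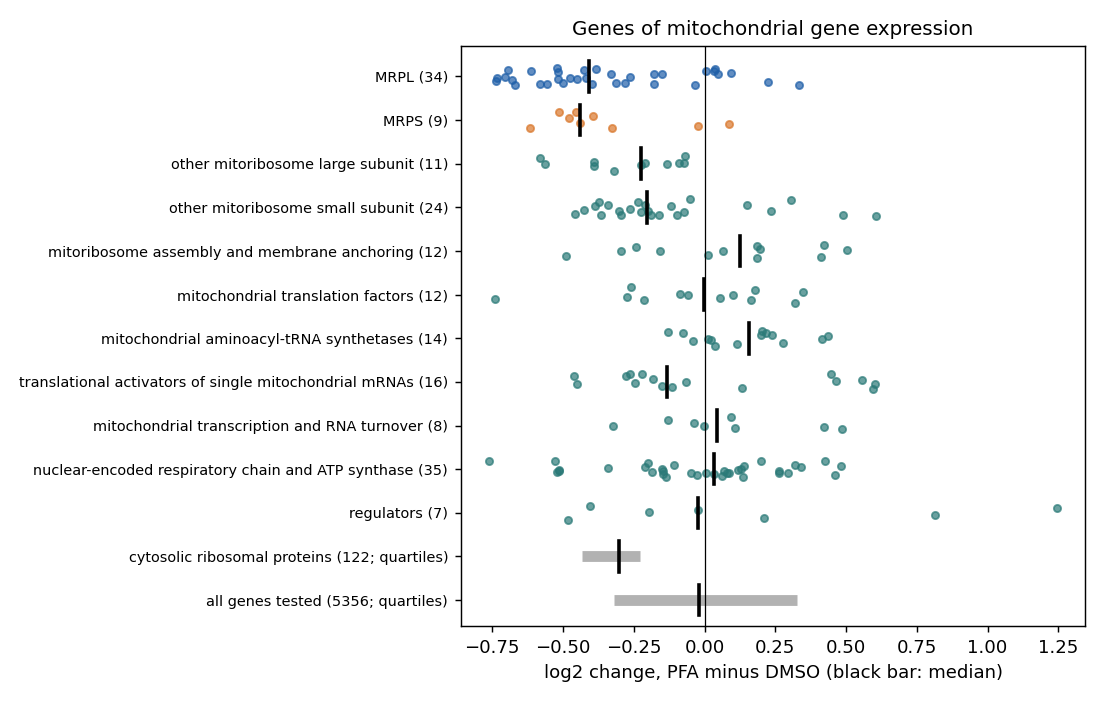
The x axis gives log2 changes, PFA minus DMSO, with a row for each list and its number of genes, a point for each gene and a black bar at the median. Grey bars in the lowest 2 rows span the quartiles of the cytosolic ribosomal proteins and of all genes tested. MRPL and MRPS medians are -0.41 and -0.44, and the other mitochondrial lists have medians from -0.22 to 0.16.

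Of 7 regulators 3 rose (42.9%, beside 30.3% of all genes) and 0 fell (beside 31.8%). HAP4, the limiting activator of respiratory genes, had signals of 408, 687 and 639 in PFA and 785, 623 and 847 in DMSO. Its groups overlapped, with a log2 change of -0.40 (adjusted p = 0.0596). HAP1, the heme-responsive activator whose S288C allele carries a Ty insertion, had 4536, 4246 and 4465 in PFA and 1900, 1840 and 1845 in DMSO, a rise of 2.37-fold (adjusted p = 1.2e-08). SFP1, a regulator of cytosolic ribosomal protein genes, rose 1.76-fold, with 1398, 1417 and 1579 in PFA and 860, 820 and 817 in DMSO. PUF3, whose product binds messages of the mitochondrial ribosome and shortens their life, was close to the background level, with 26.6, 27.3 and 16.9 in PFA and 40.5, 25.2 and 33.0 in DMSO. It did not pass the test (log2 -0.48 ± 0.43, SE, adjusted p = 0.349). HAP5, a subunit of the HAP complex that HAP4 activates through, was the third to rise (log2 0.21, adjusted p = 0.0458).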

How the data were processed

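Labelled RNA of 6 cultures was read on 1 Affymetrix Yeast Genome 2.0 array each, and groups and replicate numbers come from the sample titles. Each deposited file holds linear signal intensities by probe set, and their trimmed means (2% cut at each end) were nearly equal on all arrays. GCOS 1.1 is named per the submitters' processing notes, and the summary algorithm is not given in the sources used here.

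Of 10928 probe sets, 5498 were matched to a yeast gene by GEO's platform annotation, with symbols updated from RefSeq. The brightest probe set stood for a gene, and genes with a mean log2 signal above the background level were tested. Log2 was taken without a pseudocount. Tests were two-sided, from linear models of limma 3.58.1 (R 4.3.3; eBayes with trend = TRUE), with Benjamini-Hochberg adjustment across the 5356 genes and a threshold of 0.05, without a replicate block. Deviations from group means correlated at -0.05, -0.09 and 0.16 between same-numbered arrays and at -0.11 to 0.16 between the others. With 3 arrays per group these values cannot tell whether same-numbered cultures were handled together. Folds are ratios of geometric means. P-values set the difference between groups against the spread among 3 cultures per group, which limma moderates with a trend over all genes tested. The 6 arrays limit the precision.

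The members, lists and tests were chosen with earlier results of these data known. Per-array signals were given by rule for the 6 largest falls and rises, the 3 brightest and 3 dimmest probe sets and members against the majority direction. From each list up to 4 called genes with the largest change were named. HAP4, HAP1, PUF3, SFP1, TUF1, RPO41 and OXA1 were named whatever their result. MRPL11, MRPL22, MRP20, MRP10, RSM22, MEF1, MEF2, GUF1, CBP1, CBP3, CBS2, HAP5, ATP3 and COX7 were added after their values were seen. MRP35 and MTG3 had no probe set under those names. No sequences were used. Alternatives were quantile normalization, median centring, pseudocounts of 16 and 64, a stricter filter or none, no variance trend, a replicate block, array weights, all or only specific probe sets, and each array left out.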

Additional observations from a re-analysis of the deposited data

How the results depend on the processing

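Over 18 alternatives the members that fell numbered 28 to 33 of 43. The exception was the stricter filter, which tested 20 members and called 15 lower and 1 higher, and 1893 of 2724 genes in all. The number that rose was 1 in place of 2 after quantile normalization and median centring. The median log2 change of the members was -0.48 after centring, which moved the median of all genes to -0.08, and -0.36 with array weights. Leaving out each array in turn gave a median of -0.45 to -0.35, closest to 0 without PFA replicate 3, 28 to 30 lower, 1 to 2 higher, and 2963 to 3266 genes called in all. Without PFA replicate 3 and DMSO replicate 1, chosen after the data were seen, the median was -0.30, with 1 higher. The median change of MRPL minus that of MRPS genes was 0.11 under the stricter filter and -0.020 to 0.048 over arrays left out, below 0 without DMSO replicate 1 or PFA replicate 1. With the replicate block 30 fell and 2 rose, as without it, and the block changed no call of a member. Of 751 values for single members, 15 lost the call, 7 gained it and 0 reversed. The gains were in MRPL22, MRPL24 and MRPL36 after both rescalings, and in MRPL36 also with array weights. MRPL51 lost it without the variance trend, with array weights and without DMSO replicate 1, DMSO replicate 3 or PFA replicate 3, and MRPS16 without DMSO replicate 1. Both also lost it without the pair of arrays. Among the 11 members without a call, 6 changed sign at least once. The causes were not tested. The lowest mean signal of a member was 524, against the background level of 20.01.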

Other observations

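Of 79 listed genes of the mitochondrial ribosome, 2 pairs were adjacent in the reference gene order. MRPS12 (log2 change -0.40) lies beside RSM19 (0.49), and both passed the test in opposite directions. MRX14 (-0.09, adjusted p = 0.429) lies beside MRPL1 (-0.33).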
